A study of Homo sapiens with 3 samples.

Results

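The 5 genes described here belong to the digestive secretion of the pancreas and were followed through a human intestinal epithelium model: the trypsinogens PRSS1, PRSS2 and PRSS3, the colipase CLPS and the trypsin inhibitor SPINK1. They are 5 of the 33538 genes in the count tables, taken by their gene symbols. They were chosen by their levels across the cells of these same libraries, so levels by cell line and by cluster are given here as descriptions, without a test. The model is a co-culture of Caco-2 and HT29, both human colorectal carcinoma lines, seeded together on Transwell inserts with Caco-2 in excess. It was sampled as 2 untreated control libraries and 1 library treated on the apical side from day 22 for 24 h with lipopolysaccharide (LPS) of Escherichia coli O111:B4 at 1 ng/ml. All 3 were harvested by trypsin on day 23, frozen, thawed and read as single-cell 3′ RNA, and a sample under the viability limit of the protocol was first cleared of dead cells. At least 1 molecule of the 5 genes was counted in 11671 of the 14472 cells kept.

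Trypsinogens are the inactive forms of trypsin, the serine protease that opens the activation cascade of the other pancreatic enzymes in the gut lumen. PRSS1 encodes cationic trypsinogen, PRSS2 anionic trypsinogen and PRSS3 mesotrypsinogen, a form that resists most trypsin inhibitors. SPINK1 is the Kazal-type inhibitor that acinar cells pack together with trypsinogen, and it is also made by gut mucosa and by many carcinomas. Colipase is the cofactor that anchors pancreatic lipase to lipid droplets covered by bile salts. Outside the pancreas PRSS2 is known from Paneth cells, where trypsin processes defensins.

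The trypsinogen genes are close relatives, so their sequences decide how far their counts can be kept apart. In GENCODE v44 on GRCh38, PRSS1 (ENSG00000204983) lies on chromosome 7 at 142749468 to 142753072 and PRSS2 (ENSG00000275896) on chromosome 7 at 142760398 to 142774564, both on the plus strand. PRSS3 (ENSG00000010438) lies on chromosome 9 at 33750679 to 33799231, also on the plus strand. The reading frame of each is 744 bases long, and the pairs are identical at 92.9% of bases for PRSS1 and PRSS2, 91.5% for PRSS1 and PRSS3 and 93.3% for PRSS2 and PRSS3. A 3′ library reads mostly the end of the transcript, so the ends were compared in windows.

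Over the last 300 bases of the transcripts none of the 211 windows of 90 bases was identical between any pair of the 3 genes. The closest pair was PRSS2 and PRSS3, with 29 of the 211 windows within 2 mismatches. PRSS2 shared 16 of its 211 windows exactly with the pseudogene PRSS3P1. Reads from these windows may have been left uncounted or, if they came from PRSS3P1, counted as PRSS2. Which of these occurred was not checked, and PRSS2 counts are uncertain to that extent. CLPS (ENSG00000137392) lies on chromosome 6 at 35794982 to 35797344 and SPINK1 (ENSG00000164266) on chromosome 5 at 147824572 to 147831671, both on the minus strand. The closest window of either to a trypsinogen had 46 mismatches.

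The trypsinogen promoters are shown because PRSS1 and PRSS2 levels moved together over the cells while PRSS3 levels did not. The RefSeq table for GRCh38 held promoters of 4 of the 5 genes, CLPS being the one not matched, and the 250 bases before each start are given for the trypsinogens on the plus strand. They lie at chr7:142749222-142749471 for PRSS1, chr7:142770720-142770969 for PRSS2 and chr9:33795311-33795560 for PRSS3. Capitals mark exact matches, on either strand, to the TATA box TATAAA and to both parts of the binding site of the acinar factor PTF1, CACCTG and TTTCCC.
PRSS1: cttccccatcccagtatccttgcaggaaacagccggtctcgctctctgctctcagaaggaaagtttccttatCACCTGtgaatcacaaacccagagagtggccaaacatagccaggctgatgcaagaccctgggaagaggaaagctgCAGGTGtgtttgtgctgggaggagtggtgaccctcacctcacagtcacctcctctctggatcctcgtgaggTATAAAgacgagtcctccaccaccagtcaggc
PRSS2: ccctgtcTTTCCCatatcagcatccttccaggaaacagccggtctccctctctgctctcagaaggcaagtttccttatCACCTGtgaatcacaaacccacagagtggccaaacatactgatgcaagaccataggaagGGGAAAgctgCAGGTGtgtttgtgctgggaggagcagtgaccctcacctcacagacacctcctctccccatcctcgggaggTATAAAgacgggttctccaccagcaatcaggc
PRSS3: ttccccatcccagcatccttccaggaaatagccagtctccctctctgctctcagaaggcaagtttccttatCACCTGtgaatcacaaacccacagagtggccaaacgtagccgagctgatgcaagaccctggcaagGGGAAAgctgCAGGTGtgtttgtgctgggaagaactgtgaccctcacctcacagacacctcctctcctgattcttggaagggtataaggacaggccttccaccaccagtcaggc

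The promoters of PRSS1 and PRSS3 were identical at 88.5% of aligned positions, those of PRSS1 and PRSS2 at 87.1% and those of PRSS2 and PRSS3 at 85.6%. Between each of them and the SPINK1 promoter it was 43.2% to 46.8%. All 3 held CACCTG on both strands, a motif present in 17.5% of the 35116 promoters in the table. PRSS1 and PRSS2 held TATAAA 32 bases before the start, and PRSS3 had the near match tataag at the same place. TATAAA was present in 10.7% of promoters. The shares of promoters count a motif anywhere in the 250 bases, on either strand. TTTCCC, present in 23.3% of promoters, was in PRSS2 and PRSS3 and not in PRSS1, and 3.72% of all promoters held both parts of the PTF1 site. The windows of PRSS2 and PRSS3 lie just before the canonical starts at 142770970 and 33795561. Both genes begin further upstream, at 142760398 and 33750679, and a 3′ library does not show which start was used. These matches describe the letters of the windows only.

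The libraries were of unequal depth. The cells kept were 4633 in control 1, 4989 in control 2 and 4850 in the LPS library, with medians of 5459, 4103 and 3573.5 unique molecular identifiers (UMIs, 1 per captured RNA molecule) a cell. Each cell was assigned to a line by signature genes of the monocultures that include none of the 5 genes. This gave 11850 Caco-2-line cells, 2404 HT29-line cells and 218 cells between the lines. Levels are given as CPM, the count of a gene scaled to a fixed total of UMIs over the summed cells. They are not scaled to transcript length, and the transcripts of the trypsinogens are 808 or 809 bases long. Orders between other genes are orders of counted molecules only. The libraries shared 9 to 11 cell barcodes a pair, with no identical columns.

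All 5 genes were detected in each library, in very different numbers of cells. SPINK1 was at 479 CPM in control 1, 407 in control 2 and 423 in the LPS library, and 63.0% of control cells had a UMI of it. PRSS3 was the most abundant trypsinogen, at 228, 194 and 178 CPM in the same order, with a UMI in 57.4% of control cells. PRSS2 was at 56.0, 24.1 and 30.2 CPM and PRSS1 at 23.7, 18.4 and 18.3 CPM. Both were found in a small minority, 4.54% of control cells for PRSS2 and 5.59% for PRSS1. CLPS was the rarest, at 8.61, 6.93 and 1.57 CPM, with a UMI in 1.14% of control cells.

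The molecules of PRSS1, PRSS2 and CLPS sat in very few cells, while those of PRSS3 and SPINK1 were spread widely. Taking the cells from the highest count down, 23 of the 14472 cells held as many PRSS2 UMIs as all the others together. The same point was reached with 21 cells for CLPS and 72 for PRSS1, but only with 1950 cells for PRSS3 and 1589 for SPINK1. The single highest cell carried 180 UMIs of PRSS2, 71 of PRSS1 and 23 of CLPS. Of the 23 cells that led for PRSS2, 18 came from control 1, 2 from control 2 and 3 from the LPS library, and 21 were HT29-line cells. The PRSS2 level of a library or cluster thus rested on few cells, and the LPS library lay between controls that differed widely.

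**Figure D1:**
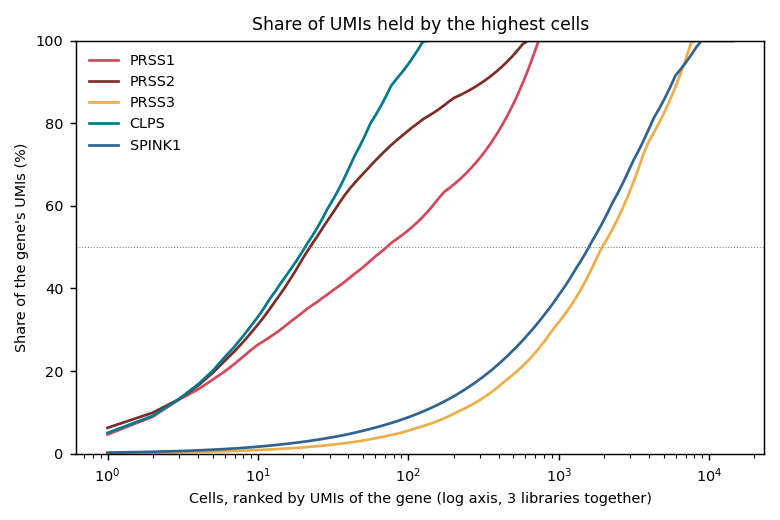
Share of each gene's UMIs (y axis, percent) held by the cells ranked from the highest count down (x axis, number of cells, log scale), all 3 libraries together. The dotted line marks the point at which the ranked cells hold as many UMIs as all the others. The curves of PRSS2 and CLPS reach it at 23 and 21 cells, and those of PRSS3 and SPINK1 at 1950 and 1589 cells.

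Between the lines, PRSS1 and PRSS2 were higher in HT29-line cells, SPINK1 and CLPS in Caco-2-line cells, and PRSS3 was at close levels in both. PRSS1 was at 106 CPM in control 1, 52.4 in control 2 and 47.2 in the LPS library in HT29-line cells, against 10.9, 11.2 and 11.3 in Caco-2-line cells. PRSS2 was at 332, 93.1 and 103 CPM in HT29-line cells, against 13.1, 8.45 and 10.25 in Caco-2-line cells. For both genes the lines did not overlap in any library, although control 1 stood well above the other libraries among HT29-line cells. SPINK1 was at 160, 241 and 193 CPM in HT29-line cells and at 531, 442 and 471 in Caco-2-line cells, again without overlap. PRSS3 was at 273, 224 and 210 CPM in HT29-line cells and at 221, 188 and 171 in Caco-2-line cells, so the ranges overlapped, although HT29-line cells were the higher ones within each library. CLPS was at 5.45, 0.988 and 0.305 CPM in HT29-line cells, on 22, 4 and 1 UMIs. In Caco-2-line cells it was at 8.64, 7.95 and 1.26 CPM, on 221, 158 and 21 UMIs. These ranges also overlapped, although Caco-2-line cells were the higher ones within each library. In control 1, 19 of the 22 HT29-line UMIs came from 1 cell.

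Depth differs between cells, so the shares of cells with a UMI were also taken after thinning every cell to the UMI minimum of control 1, with 884 shallower Caco-2-line and 284 shallower HT29-line cells left out. Thinned, PRSS1 was found in 5.14% of HT29-line and 2.17% of Caco-2-line cells and PRSS2 in 6.32% and 1.57%. SPINK1 was found in 22.0% of HT29-line and 51.1% of Caco-2-line cells, and PRSS3 in 36.8% and 33.7%. The order of the lines was thus the same as by level. The lines differed less by share than by level for PRSS1 and PRSS2. In control 1, for example, 73 HT29-line cells carried 1341 UMIs of PRSS2, against 334 UMIs in 156 Caco-2-line cells.

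**Figure D2:**
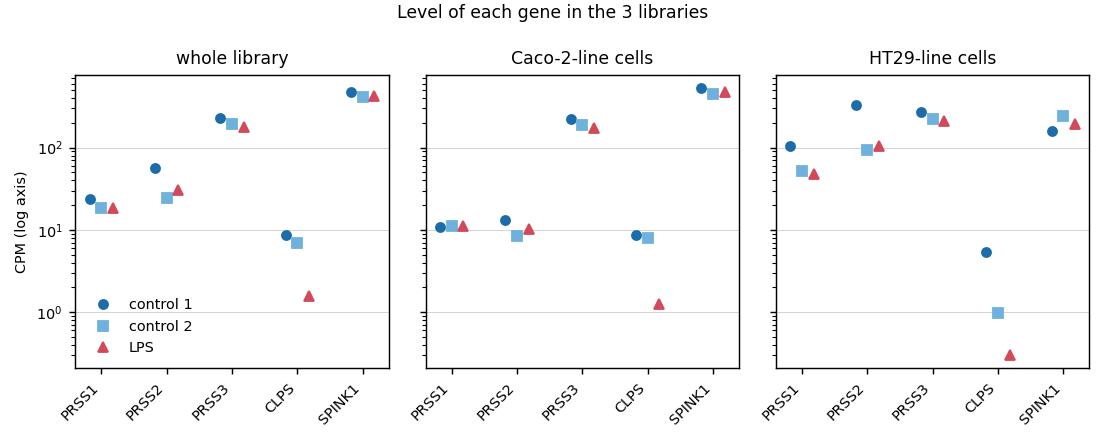
Level of each gene (y axis, CPM of summed UMIs, log scale) in the 2 control libraries and the LPS library, for all kept cells, Caco-2-line cells and HT29-line cells. Each point is 1 library. PRSS1 and PRSS2 lie higher in HT29-line than in Caco-2-line cells in each library, and CLPS is lower in the LPS library.

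The cells were then grouped into 23 clusters without the 5 genes among the clustering genes, and the clusters were named by marker genes after the cell types of the gut that they resembled. Clusters of transit-amplifying-like cells (TALC), intestinal stem cell-like cells (ISCLC), enterocyte-like cells (ECLC, some of them LYZ+), goblet cell-like cells (GCLC), enteroendocrine cell-like cells (EECLC), undifferentiated HT29 cells (U-HT29) and fetal genes expressing cells (FGEC) were found, and 4 clusters were left unnamed. By the mean of the controls, PRSS1 and PRSS2 were highest in the same clusters, 3, 16 and 22, where the PRSS1 level of cluster 22 rested on 14 UMIs. PRSS3, CLPS and SPINK1 each peaked in other clusters. The clusters were built from the same cells, and no test was made between them.

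**Figure D3:**
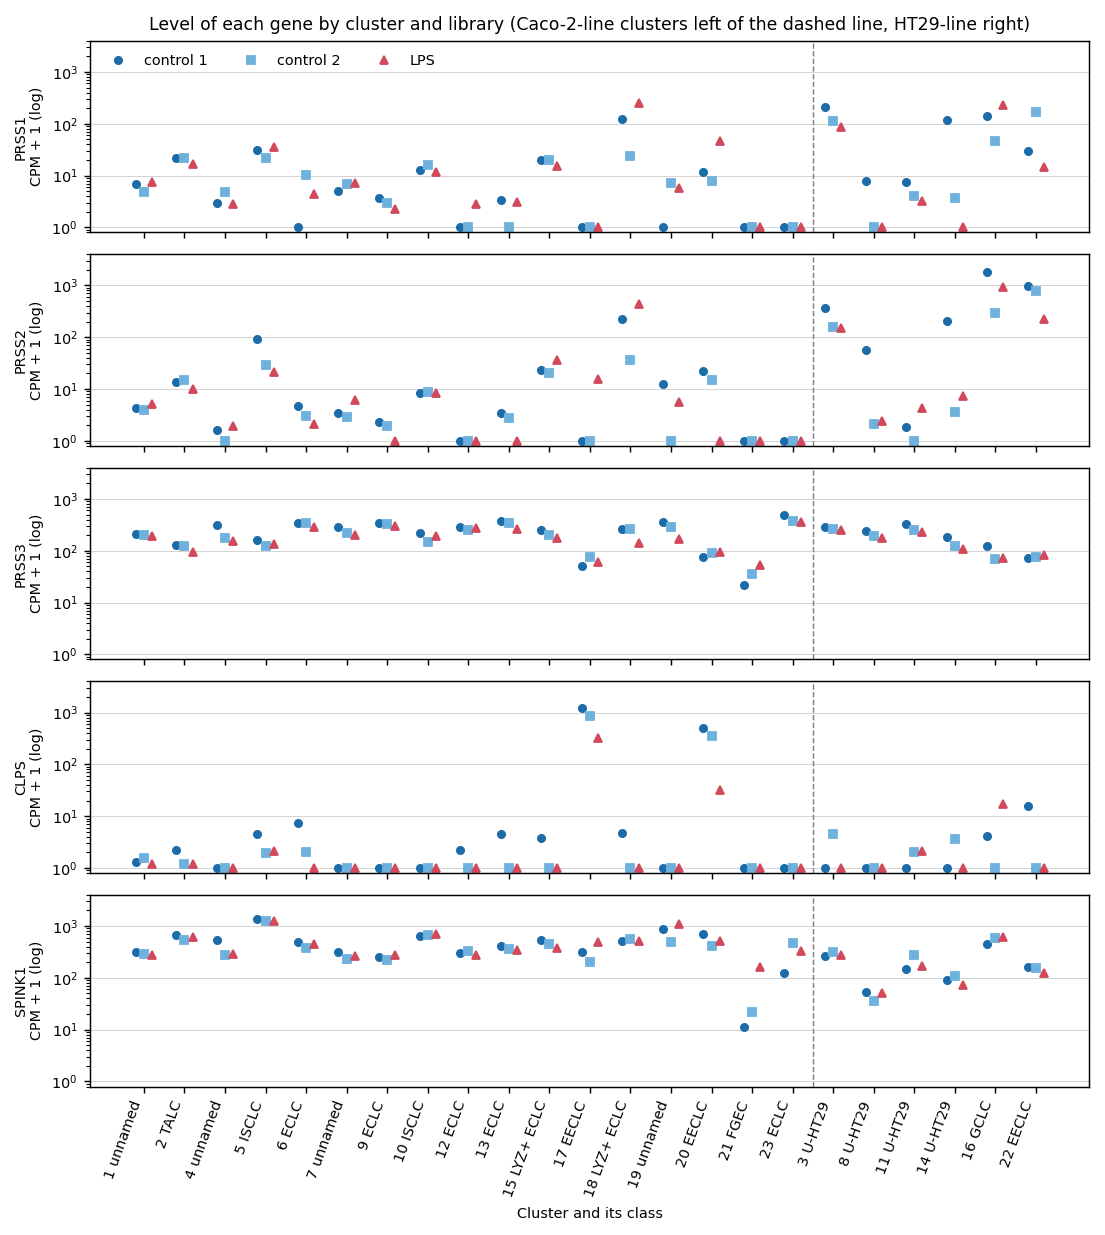
Level of each gene (y axes, CPM of summed UMIs + 1, log scale) in the 23 clusters (x axis, number and name, HT29-line clusters to the right of the dashed line), 1 point per library. PRSS2 is high in cluster 3 (U-HT29), cluster 16 (GCLC) and cluster 22 (EECLC) and PRSS1 in clusters 3 and 16, with high points of both also in cluster 18 (LYZ+ ECLC), of 20, 71 and 8 cells, that rest on few cells. CLPS peaks in clusters 17 and 20 (EECLC) and SPINK1 in cluster 5 (ISCLC), while PRSS3 varies least.

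PRSS2 was high in the secretory clusters of the HT29 line. In cluster 16, the GCLC, marked by the mucin MUC2 and by FCGBP, PRSS2 was at 1859 CPM in control 1, 287 in control 2 and 928 in the LPS library. Cluster 22, EECLC with the hormone genes SST and GCG and mostly of the HT29 line, had 976, 790 and 220 CPM. Its levels rested on 68, 52 and 16 UMIs in 17, 22 and 25 cells, and were 614, 504 and 133 CPM without the highest cell of each library. Cluster 3, U-HT29 cells led by LCN15, had 361, 158 and 152 CPM. The ranges of these 3 clusters overlapped, so no order among them is given, but in every library all 3 lay above the 8.96 to 13.7 CPM of TALC in cluster 2. The share of cells varied less between libraries than the level did, with a UMI of PRSS2 in 45.1%, 17.1% and 22.6% of cluster 16 cells in the order above. In ECLC, where trypsinogen is not a marker, a UMI of PRSS2 was in 0.726% of control cells and one of PRSS1 in 0.756%, at median depths of 5152.5 and 4024 UMIs a cell. No UMI of PRSS2 was found in clusters 12, 21 and 23, 0 of 488 cells. These clusters were picked for having none, so the pooled count sets no limit on the share.

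PRSS1 was most evenly high in cluster 3. It was at 206 CPM in control 1, 113 in control 2 and 86.3 in the LPS library in cluster 3, at 142, 45.7 and 233 in cluster 16 and at 28.7, 167 and 13.8 in cluster 22, the last on 2, 11 and 1 UMIs. With the highest cell of each library left out, it was at 160, 74.7 and 78.2 CPM in cluster 3 and at 48.1, 29.96 and 85.7 in cluster 16, and cluster 22 had 15.96 in control 2. Cluster 18, LYZ+ ECLC mostly of the Caco-2 line, had PRSS1 at 125, 23.0 and 246 CPM and PRSS2 at 223, 35.8 and 446, the highest PRSS1 of any cluster in the LPS library, but on 20, 71 and 8 cells. In control 1, 29 of its 33 PRSS1 and 55 of its 59 PRSS2 UMIs came from 1 cell, the only HT29-line cell of the cluster. Without the highest cell of each library cluster 18 had PRSS1 at 15.9, 21.2 and 137 CPM and PRSS2 at 15.9, 26.3 and 85.9. Cluster 2, TALC, had PRSS1 at the low and even levels of 20.4, 20.4 and 15.4 CPM, with a UMI in 12.2%, 11.04% and 6.86% of its cells at median depths of 6611, 5032.5 and 4006 UMIs. That share was well above the 0.756% of control ECLC, which were shallower. No UMI of PRSS1 was found in clusters 17, 21 and 23, 0 of 233 cells, again clusters picked for having none.

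Other cluster levels also rested on single cells. In control 1, cluster 14 had PRSS2 at 205 CPM and cluster 8 at 56.6 CPM, of which 45 of 55 and 52 of 57 UMIs came from 1 cell each. The 92.6 CPM of PRSS2 in ISCLC of cluster 5 in control 1 included 1 cell with 94 of the 160 UMIs, against 28.0 CPM in control 2 and 20.4 in the LPS library. In the same cluster the share of cells with PRSS2 was 14.7%, 10.1% and 6.11%.

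PRSS1 and PRSS2 were counted together in more cells than the product of their shares gives, although most positive cells had a UMI of only one of them. Both were found in 87 of the 263 HT29-line cells with either gene and in 88 of the 864 such Caco-2-line cells. Among HT29-line cells, both were counted in 37 of 645 cells of control 1, 25 of 957 of control 2 and 25 of 802 of the LPS library, where the product gives 7.36, 3.75 and 2.58 cells. Among Caco-2-line cells both were counted in 36, 29 and 23 cells, against products of 8.19, 6.997 and 3.87. PRSS3 showed no such coupling: of the HT29-line cells with PRSS2, 49.3%, 42.1% and 47.2% had PRSS3, against 65.9%, 51.2% and 47.5% of those without. Shared detection also rises with the depth of a cell, and its part here was not tested. In Caco-2-line cells, SPINK1 was counted in 91.3%, 81.6% and 81.3% of the cells with PRSS1, against 72.4%, 64.3% and 60.1% of those without.

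Cells with at least 10 UMIs of PRSS1 and PRSS2 together numbered 68, of which 31 were in control 1, 18 in control 2 and 19 in the LPS library. They held 62.1% of the UMIs of both genes. Of the 68, 55 were HT29-line cells, 8 Caco-2-line cells and 5 between the lines. Each had PRSS2, and 17 had no PRSS1. Those 17 were not spread evenly: they made up 1 of 35 such cells in cluster 3, 12 of 19 in the GCLC of cluster 16 and 4 of 6 in the EECLC of cluster 22. In cluster 16 they were 6 of 8, 3 of 4 and 3 of 7 cells in control 1, control 2 and the LPS library, so each library showed them.

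The mix of both trypsinogens therefore differed by cluster. PRSS1 made up 61.3%, 59.7% and 63.2% of the PRSS1 and PRSS2 UMIs in TALC of cluster 2, and 64.5%, 57.1% and 60.0% in the unnamed cluster 1, in control 1, control 2 and the LPS library. In U-HT29 cells of cluster 3 it made up 36.4%, 41.6% and 36.2%. In GCLC of cluster 16 it made up 7.11%, 13.7% and 20.1%, and in cluster 22 it was 9.33% over all 3 libraries. The libraries lay close together within clusters 2 and 3 and the clusters did not overlap, so TALC had more PRSS1 than PRSS2 and U-HT29 cells of cluster 3 the reverse. Both transcripts are 809 bases long, but the windows that PRSS2 shares with PRSS3P1 leave the share of PRSS2 uncertain.

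**Figure D4:**
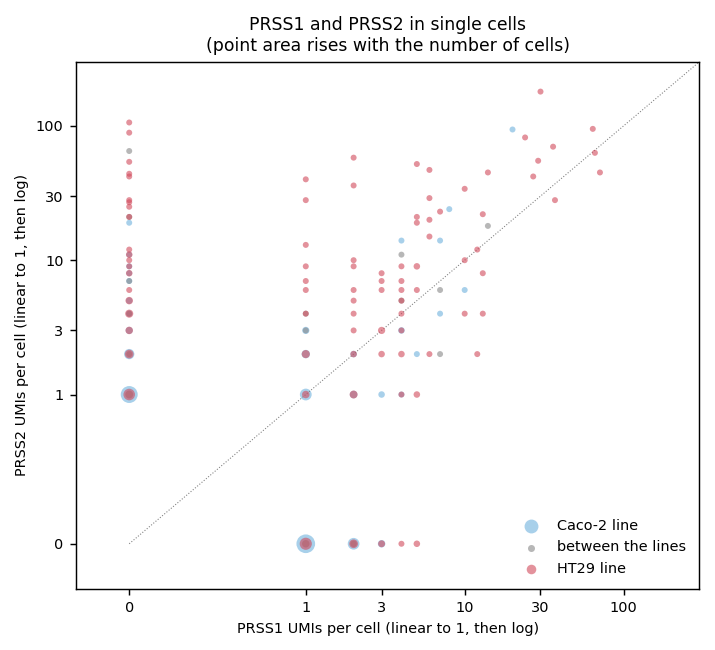
UMIs of PRSS1 (x axis) against PRSS2 (y axis) per cell in the cells with trypsinogen UMIs, coloured by line, with point areas that rise with the number of cells and axes that are linear up to 1 and logarithmic above. Of the 68 cells with at least 10 UMIs of both together, 55 are HT29-line cells, and 17 have no PRSS1 and lie at the left edge.

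Cluster 3 was split by its trypsinogen UMIs to see what the positive cells had besides. Cells with at least 3 numbered 32 in control 1, 25 in control 2 and 29 in the LPS library, against 161, 339 and 294 cells with none, and the genes named here were chosen after their values were seen. LCN15, a lipocalin, was at 1006, 1249 and 960 CPM in the positive cells and at 283, 186 and 330 CPM in the cells with none. TFF3, the trefoil factor of goblet cells, was at 974, 1914 and 1693 CPM against 540, 873 and 629. Lower in the positive cells in each library were SNCG, a synuclein, at 148, 144 and 85.3 CPM against 376, 425 and 325, and LCN2, another lipocalin, at 55.4, 62.9 and 78.2 against 153, 142 and 143. PRSS3 did not go one way, at 314, 189 and 306 CPM against 279, 266 and 253.

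PRSS3 was the evenly spread trypsinogen, with its highest levels in ECLC. Cluster 23 had 486, 378 and 357 CPM in control 1, control 2 and the LPS library, cluster 13 had 369, 340 and 266, cluster 9 had 349, 332 and 304 and cluster 6 had 343, 346 and 285. Neighbours in this order overlapped in range. Cluster 23, on 101 UMIs in 45 cells, lay above clusters 13, 9 and 6 in each library, and its range did not reach those of clusters 9 and 6. Below these ECLC clusters by the mean of the controls came the unnamed cluster 19, with 351, 284 and 169 CPM on 113 UMIs. U-HT29 cluster 11 followed, with 334, 254 and 231. U-HT29 cluster 3, at 281, 260 and 254 CPM, was level with the ECLC of cluster 12, at 290, 249 and 271. The other U-HT29 clusters were lower, at 239, 194 and 179 CPM in cluster 8 and 187, 122 and 109 in cluster 14. The lowest levels were in FGEC of cluster 21, at 20.8, 35.3 and 53.1 CPM, and in the secretory clusters: 49.3, 74.0 and 58.5 CPM in cluster 17, 71.8, 76.0 and 82.6 in cluster 22, 74.5, 89.2 and 92.7 in cluster 20 and 120, 68.6 and 72.3 in cluster 16. Cluster 16 and cluster 22, the places of most PRSS2, were thus among those of least PRSS3.

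SPINK1 was highest in ISCLC. Cluster 5, with PLA2G2A, SMOC2 and OLFML3 among its leading genes over all 3 libraries, had 1396, 1241 and 1258 CPM in control 1, control 2 and the LPS library. This range did not overlap that of any other cluster. The unnamed cluster 19 had 861, 494 and 1087 CPM, the ISCLC of cluster 10, which express AFP and ALB, 651, 660 and 701, and the TALC of cluster 2 670, 532 and 603. The last 3 overlapped. SPINK1 was lowest in U-HT29, at 52.6, 34.7 and 49.8 CPM in cluster 8 and 89.7, 106 and 70.7 in cluster 14, and in the FGEC of cluster 21, where the 10.4, 21.2 and 159 CPM rested on 2, 6 and 6 UMIs. Cluster 3, the U-HT29 cells with most PRSS1, had SPINK1 at 261, 311 and 274 CPM, and the GCLC of cluster 16 at 446, 588 and 627.

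CLPS marked a pair of small EECLC clusters of the Caco-2 line. Cluster 17 expressed INSM1, CHGA and PAX4, genes of enteroendocrine commitment and secretory granules, and had CLPS at 1233 CPM in control 1, 855 in control 2 and 322 in the LPS library. Cluster 20 had 511, 350 and 30.9 CPM. No other cluster passed 16.1 CPM in any library, including the third EECLC cluster, number 22, mostly of the HT29 line, in which 1 CLPS UMI was counted. Clusters 17 and 20 together held 66, 91 and 35 cells, 1.42%, 1.82% and 0.722% of each library, and 223 of 258, 155 of 169 and 24 of 32 of its CLPS UMIs. In 8 clusters there was none, 0 of 3479 cells, but they were picked for that count, so it sets no limit on the share. A UMI was in 60.6%, 47.3% and 31.4% of cells of clusters 17 and 20, at median depths of 2860.5, 2150 and 2573 UMIs, and in 0.372%, 0.204% and 0.104% of all other cells, which were deeper.

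The genes whose levels were most like each member were found over 50 sums of cells, by cluster and library, each of at least 50 cells. These came from 19 of the 23 clusters. Clusters 20, 21, 22 and 23 had fewer cells in every library and are not among them, and cluster 17 entered by control 2 alone. The sums share libraries and depth, and the correlations are given as descriptions. PRSS1 and PRSS2 were each other's closest gene among 8302 genes, with r = 0.88, followed for PRSS1 by REG4 (0.73) and for PRSS2 by ZNF511 (0.76). PRSS3 was closest to PTGR1 (0.83) and C3orf85 (0.82), and its r with PRSS1 and PRSS2 was -0.30 and -0.40. SPINK1 was closest to ASGR2 (0.84) and METTL21A (0.82), with r = 0.38 to PRSS1 and -0.14 to PRSS3. CLPS was closest to INSM1 (0.78), a transcription factor of endocrine and neuroendocrine cells.

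Few other acinar products passed 1 CPM. Of the 28 listed, 27 were in the tables, and 5 of the 27 were at 1 CPM or more in the controls. Among all 33538 genes the share was 40.8%. Of the 27, 9 had no UMI in the control cells, among them the lipase PNLIP, the partner of colipase, the carboxypeptidase CPA1 and the amylase AMY2A. Only KLK1, tissue kallikrein, passed 10 CPM, at 244 CPM as the mean of the controls, while CEL, REG1A and RNASE1 were among those between 1 and 10 CPM. Of the 8 acinar transcription factors listed, 4 passed 10 CPM, but PTF1A had 1 UMI in all control cells and RBPJL none. TMPRSS15, the enteropeptidase that activates trypsinogen, had no UMI in any library. CTSB, the lysosomal protease that can also activate it, was at 67.8 CPM and F2RL1, the trypsin receptor, at 32.7 CPM. Among other inhibitors of trypsin, SERPINA1 was at 1594 CPM and SPINT2 at 673 CPM. Of the Paneth cell products, LYZ was at 230.0 CPM in the controls, 1294 in their HT29-line and 33.97 in their Caco-2-line cells, while the defensins DEFA5 and DEFA6 had 4 and 5 UMIs in all.

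The last comparison asked whether LPS changed the 5 genes. It was tested over all genes on the summed cells of each library with the quasi-likelihood test of edgeR. With 1 LPS library the fit has 1 residual degree of freedom and takes that library to vary as the controls do. Over the whole library 17 of 16135 genes were called at an adjusted p under 0.05, 0.105% of those tested, with 0.0682% higher and 0.0372% lower, and 1 of the 5 members was among the lower. In Caco-2-line cells 17 of 15555 were called, 0.109%, with 0.0386% higher and 0.0707% lower, again with 1 member among the lower. In HT29-line cells 14 of 11990 were called, 0.117%, all of them higher and none a member.

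CLPS fell in the LPS library. Its 258 UMIs in control 1 and 169 in control 2 stood against 32 in the LPS library, with levels of 8.61, 6.93 and 1.57 CPM. The LPS library lay below both controls, by -2.39 ± 0.30 on the log2 scale (SE, edgeR adjusted p = 0.000383). In Caco-2-line cells CLPS was at 8.64, 7.95 and 1.26 CPM, a log2 change of -2.80 ± 0.32 (edgeR adjusted p = 0.000109). The call held with the highest cell of each library left out, at -2.48 (adjusted p = 0.00075) over the whole library and -2.93 (adjusted p = 0.000126) in Caco-2-line cells. It also held with DESeq2, at adjusted p = 0.00739 and 0.00124.

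The clusters that carry CLPS were themselves smaller in the LPS library, and their CLPS level was lower too. They made up 0.722% of its cells against 1.42% and 1.82% of the controls. Within clusters 17 and 20 CLPS was at 946 CPM in control 1 (95% Poisson interval 826 to 1078), 580 in control 2 (492 to 678) and 180 in the LPS library (115.5 to 268). The intervals do not overlap, but they cover counting error only. The test over all cells of these clusters, of whichever line, gave -1.94 ± 0.41 and was not called. In Caco-2-line cells outside them the change was -2.23 ± 1.04, adjusted p = 0.815. Whether fewer cells or less RNA per cell made the larger part cannot be told apart with 1 LPS library.

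Most markers of the same cells were also at lower levels. Of the 11 EECLC markers, 10 were tested over the whole library and 1, CPE, the prohormone-processing carboxypeptidase, was called lower, at 7.07, 7.21 and 2.55 CPM (-1.57 ± 0.26, edgeR adjusted p = 0.00938). Of the 11, 7 lay below both controls, with a median log2 change of -1.30 over the 10 tested, against 0.01 over all genes. The share of all genes that lie below both controls was not taken, so such counts of markers have no background here. The markers of all classes were taken from the study, which made its cluster genes from the control libraries. They may favour genes that are high in those libraries, and this part was not tested. The summed level of the 11 EECLC markers was 42.3 CPM in control 1, 50.3 in control 2 and 25.9 in the LPS library. NEUROD1 was at 0 in all libraries and CHGA, at 0.734 and 1.64 CPM in the controls, at 0 in the LPS library. Within clusters 17 and 20, INSM1 was at 496, 411 and 188 CPM and CPE at 458, 434 and 67.6. Another rare class of Caco-2-line cells went the same way. Of the 9 FGEC markers, 6 lay below both controls, 2 were called lower, PTN (-3.52 ± 0.57, edgeR adjusted p = 0.00794) and FABP7 (-2.34 ± 0.39, edgeR adjusted p = 0.00938), and the median was -0.78. Cluster 21, the FGEC, held 21, 44 and 8 cells. The part of these cells and of the EECLC in the CLPS result was not tested.

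**Figure D5:**
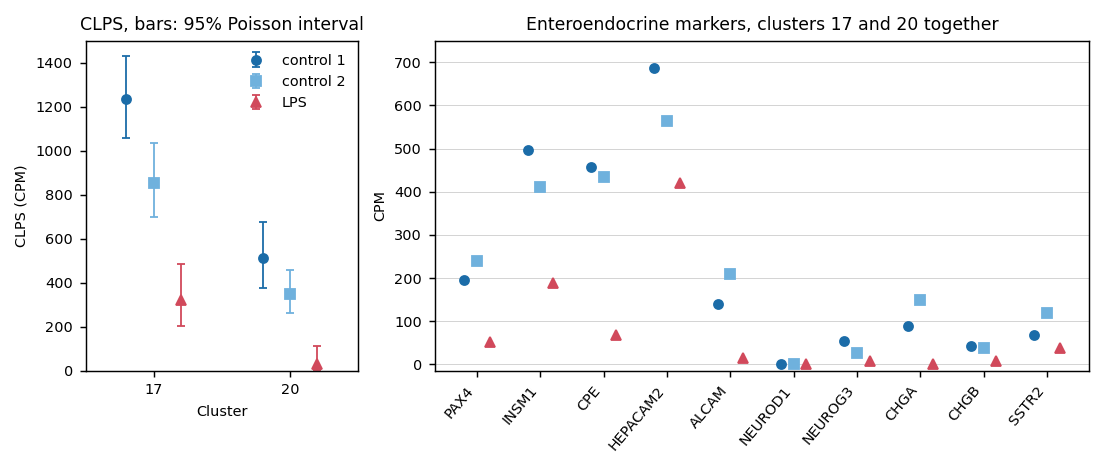
Left, CLPS level (y axis, CPM of summed UMIs) in clusters 17 and 20 (x axis), with bars for the 95% Poisson interval, which covers counting error only. Right, level of 10 EECLC markers in both clusters together, 1 point per library, with INSM1 at 496 and 411 CPM in the controls and 188 in the LPS library.

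The other members did not pass the test. Over the whole library the log2 changes were -0.29 ± 0.18 for PRSS1, -0.50 ± 0.29 for PRSS2, -0.33 ± 0.16 for PRSS3 and -0.15 ± 0.17 for SPINK1, with edgeR adjusted p of 0.956 to 0.963. PRSS1 and PRSS3 in the LPS library lay just below both controls, and PRSS2 and SPINK1 lay between them. In HT29-line cells PRSS2 was at 332 CPM in control 1, 93.1 in control 2 and 103 in the LPS library, a log2 change of -1.10 ± 0.37 (edgeR adjusted p = 0.966). That value follows the choice of control: against control 2 alone it was 0.15 and against control 1 alone -1.68. It passed the threshold under other settings, at -1.11 with the size factors of DESeq2 (edgeR adjusted p = 0.00694), -1.20 with no doublets removed (edgeR adjusted p = 0.00339) and -1.01 with the cell minimums of control 1 in every library (edgeR adjusted p = 0.0198). PRSS1 in the same cells was at 106, 52.4 and 47.2 CPM (-0.80 ± 0.30, edgeR adjusted p = 1). CLPS in HT29-line cells had 22, 4 and 1 UMIs, too few to be called (-3.32 ± 1.28, edgeR adjusted p = 1).

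The lists of related genes were mostly below the threshold as well. Of the 7 other acinar products tested over the whole library, 1 was called, REG3A, an antibacterial lectin that is also on the list of Paneth cell products, which was higher at 0.267, 1.11 and 4.26 CPM (2.61 ± 0.46, edgeR adjusted p = 0.0146). In Caco-2-line cells REG3A was again higher (2.66 ± 0.47, edgeR adjusted p = 0.0215), and WFDC2, a protease inhibitor, was lower (-1.21 ± 0.17, edgeR adjusted p = 0.00133), 1 of 14 other trypsin inhibitors tested. The 14 genes also include CSTB and CST6, which are cystatins and not trypsin inhibitors. In the controls REG3A had a UMI in 16 cells and was highest in cluster 2, at 2.23 CPM. Over all 3 libraries REG3A was a leading gene of cluster 5, and the part of cluster 5 in its change was not tested. WFDC2 was highest in the FGEC of cluster 21, at 2063 CPM against 52.6 in the Caco-2-line control cells, and the part of that cluster was not tested. In HT29-line cells PLA2G2A, a secreted phospholipase of Paneth cells, was higher, at 2.72, 4.45 and 29.9 CPM (2.99 ± 0.34, edgeR adjusted p = 9.22e-07). It was at 51.03, 63.2 and 70.9 CPM in Caco-2-line cells, where it is an ISCLC marker. Other markers of Caco-2-line classes were higher in the same HT29-line comparison, with ALB called (2.56 ± 0.30, edgeR adjusted p = 1.33e-06) and 9 of 11 ISCLC and 7 of 10 ECLC markers above both controls. Of these ISCLC and ECLC markers only 5 and 7 had enough counts to be tested, and the share of all genes above both controls was not taken. The part of such markers in the PLA2G2A result was not tested. None of the 23 other trypsin-like serine proteases, 5 acinar transcription factors, 3 activators and receptors, and 14 genes of intestinal lipid uptake tested over the whole library was called. At an unadjusted p under 0.05, 751 genes passed over the whole library, and DESeq2 called 4 genes.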

How the data were processed

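RNA was measured by the Chromium 3′ single-cell assay in 2 control libraries and 1 LPS library of the co-culture. The authors deposited UMI counts per gene and barcode from Cell Ranger, aligned to GRCh38, without normalization. Whether the libraries came from separate cultures beyond separate Transwells was not stated, so the spread between these samples may be technical. With 1 residual degree of freedom, the edgeR p-values rest mostly on spread borrowed from the other genes. They measure the spread of a single gene between these samples only in small part.

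Cells were kept at 2250 UMIs and 770 genes in control 1, at 1500 UMIs and 700 genes in the other libraries, and at a mitochondrial share of at most 20.0%. The automatic doublet threshold marked 1 cell in all, so the 6.0% of cells with the highest scores in each library were removed. Cells took a line at a posterior of 0.95 in a mixture of 2 components fitted to the ratio of HT29 to Caco-2 signature UMIs. Clusters came from sctransform 0.4.2, anchor integration in Seurat 5.3.0 (R 4.3.3) on 2995 genes without the 5 members, 50 principal components, 15 neighbours and Leiden clustering (scanpy 1.11.5, leidenalg 0.10.2, Python 3.11.15) at a resolution of 0.5 with subclustering. A cluster was named where at least 3 markers of a class were raised. Clusters, and so their names, were rebuilt here and need not be those of the study.

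UMIs were summed per library and the quasi-likelihood fit of edgeR (version 4.0.16) was run on the sums (TMM, its filter on low counts, Benjamini-Hochberg adjustment over all genes tested, threshold 0.05) and, as an alternative, DESeq2 1.42.0. Each SE printed with an edgeR log2 change was worked back from the F statistic of its test. The tests were checked on simulated counts. Poisson and binomial intervals are exact, at 95.0%, and cover counting error only. Free RNA was not removed.

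The members and gene lists were chosen with earlier results of these data known. The genes named are the 5 members, genes of the fixed lists, the 5 genes most correlated with each member and the 5 leading genes of each cluster in which a member was raised. Genes of the split of cluster 3 and the minimums of 3 and 10 UMIs used for trypsinogen cells were chosen after seeing the data. Some of these genes and sequences are not reported here.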

Additional observations from a re-analysis of the deposited data

Results flagged for a closer look

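PRSS1 in the LPS library lay above both controls in Caco-2-line cells (11.3 against 10.9 and 11.2 CPM) and below both in HT29-line cells (47.2 against 106 and 52.4 CPM). The log2 ratios of the LPS library to the mean of the controls were 0.03 and -0.74, a difference of 0.77. The difference between the lines was not tested. The Caco-2-line levels were close to each other, and the fitted changes had the same sign in both lines, at -0.05 ± 0.19 and -0.80 ± 0.30 on the log2 scale (SE).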

How the results depend on the processing

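CLPS was called lower with LPS over the whole library and in Caco-2-line cells under each alternative test, scaling, filter, doublet setting, cell minimum and line call that was run. Its edgeR and DESeq2 adjusted p ranged from 1.44e-12 to 0.00854 and from 3.1e-14 to 0.0387, and with either control left out, without a test, its log2 change was -2.44 to -2.13 and -2.75 to -2.63. It was not called within clusters 17 and 20 (-1.94) or outside them (-2.23), 2 alternatives chosen after seeing the data along with leaving out the highest cell. The changes of the other members depended on the control used. With either control left out, the log2 change was -0.89 to 0.33 for PRSS2 and -0.18 to 0.0548 for SPINK1 over the whole library. In Caco-2-line cells it was 0.0075 to 0.0481 for PRSS1, -0.35 to 0.28 for PRSS2 and -0.17 to 0.0925 for SPINK1, and in HT29-line cells -1.68 to 0.15 for PRSS2 and -0.32 to 0.27 for SPINK1. Without control 1, PRSS1 in HT29-line cells was at -0.15 and PRSS3 over the whole library at -0.12. The number of genes called over the whole library was 46 with no filter on low counts, 4 with DESeq2 and 11 with no doublets removed, against 17. In Caco-2-line cells it was 52 with no filter, 5 with DESeq2, 4 with the cell minimums of control 1 in every library and 44 with lines set by cluster, against 17. In HT29-line cells it was 22 with the size factors of DESeq2, 0 with no filter (edgeR, 265 genes at an unadjusted p under 0.05), 6 with DESeq2, 23 with no doublets removed, 34 with the minimums of control 1 and 24 with lines by cluster, against 14. The cause of these moves was not tested. With 1 control left out no residual degree of freedom remains, so no genes were counted. No paired analysis was possible because the groups share only replicate number 1. Of the recomputed cluster levels, 27 moved by more than the spread between the controls and 108 did not. PRSS2 in the match of cluster 3 was at 54.3 CPM at a resolution of 0.8, where the match held 335 of its 978 cells, and SPINK1 in the match of cluster 5 at 732 CPM at a resolution of 0.3, where the match held 4225 cells. Depth limits CLPS in HT29-line cells, with 22, 4 and 1 UMIs, and the levels in clusters of fewer than 100 cells.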

Other observations

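Relatives of the 5 genes were measured with them. Of the 11 other SPINK and colipase family genes, 3 passed 1 CPM in the controls and none passed 10 CPM. Among all 33538 genes 40.8% were at 1 CPM or more, and the share at 10 CPM is not given here. In the summed control cells, SPINK4, a gene of goblet cells, was highest in the GCLC of cluster 16, at 48.2 CPM. CLPSL1, a colipase-like gene, was highest in cluster 17, the cluster with most CLPS, at 26.6 CPM in the same cells. Both levels rest on few molecules. SPINK4 had 125 UMIs and CLPSL1 26 in all cells, and the control cells of these clusters held only a part of them. In clusters 17 and 20 together CLPSL1 had 4 UMIs in control 1 and 4 in control 2. Of the 34 other trypsin-like serine proteases, 12 passed 10 CPM, led by the membrane proteases PRSS8 at 146.4 CPM and HPN at 125 CPM. KLK12, a kallikrein, was at 10.2 CPM in the controls and highest in cluster 22, at 524 CPM, one of the clusters with most PRSS2. Of the 15 genes of intestinal lipid digestion and uptake, 10 passed 10 CPM, with the fatty acid carrier FABP1 at 2141 CPM and APOA1 at 4772 CPM, while LIPF, gastric lipase, had no UMI in the controls.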
